A study of Mus musculus with 24 samples.

Results

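FOXP1 peaks in E15.5 mouse cortex with a copy of the FOXP1 consensus around the summit were examined. The consensus is the forkhead word TGTTTAC, here called the core, with 2 pyrimidines before it and any base except G after it. A further letter at each end may be any base, which makes 12 letters. A peak was taken when the 200 bp of GRCm38 (mm10) centered on its summit held an exact match of all 12 on either strand. Of 63281 FOXP1 E15.5 peaks on chromosomes 1 to 19, 582 (0.920%, 95% Wilson interval 0.848 to 0.997%) met this rule, and the other 62699 served as the comparison. All intervals below cover counting error only.

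The peaks come from chromatin immunoprecipitation sequencing (ChIP-seq) of cortex from wildtype mice kept on a CD1 background, in a study of transcriptional regulators (TRs) associated with autism spectrum disorder (ASD). Profiles of ARID1B, FOXP1, and TCF7L2 were made at embryonic days E15.5 and E18.5, with 2 ChIP and 2 input libraries for each TR and stage, 24 libraries in all. The labels give the genotype as WT and no treatment. The labels write TCF4 for the antibody that the methods list as anti-TCF7L2, and TCF7L2 is used here. The 2 replicates were merged before peak calling, so each TR and stage is represented by 1 list, no value has a replicate error, and no p-value is given. The merged libraries behind the FOXP1 list amounted to 64.5 M reads at E15.5 (the smaller of ChIP and input, recovered from the list) and 26.3 M at E18.5, and the lowest fold enrichment listed was 2.40 and 3.21, respectively. The tissue was bulk cortex, so fewer cells with a bound site and less binding per cell cannot be told apart. FOXP1 peaks lay at the promoters of all 6 projection neuron markers and all 5 progenitor markers examined and of 4 of 5 interneuron markers (not Lhx6), but at none of 3 endothelial and none of 3 microglial markers, beside 58.0% of all coding genes.

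FOXP1 is a forkhead transcription factor that acts mainly as a repressor. In the cortex it is found in radial glia and in postmitotic projection neurons, and it forms dimers with itself, FOXP2, and FOXP4. Forkhead proteins read DNA through a winged-helix domain, and the family shares a preference for TGTTTAC-like words, so a match does not single out FOXP1 among its relatives. ARID1B is a subunit of BAF chromatin remodeling complexes without a consensus of its own, and TCF7L2 is an HMG-box factor of the Wnt pathway.

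The following stretches of the reference genome show the matches of the promoter peaks with the largest fold enrichment whose surroundings lie outside annotated UTRs. Each is given 5′ to 3′ on the strand of the match, and the capitals mark the letters of the consensus that are fixed or restricted. The sequences were read from the RefSeq GRCm38.p6 genome and are those of the reference strain, not of CD1 mice.
Ndufaf1, chr2:119662873-119662932, minus strand: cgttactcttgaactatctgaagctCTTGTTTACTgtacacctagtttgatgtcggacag
Fra10ac1, chr19:38224213-38224272, minus strand: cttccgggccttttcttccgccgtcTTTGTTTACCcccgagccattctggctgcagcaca
Mkrn3, chr7:62420179-62420238, plus strand: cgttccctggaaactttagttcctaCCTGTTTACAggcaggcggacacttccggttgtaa
Arrdc3, chr13:80886240-80886299, plus strand: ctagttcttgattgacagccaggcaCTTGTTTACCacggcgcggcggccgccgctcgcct
Ubald1, chr16:4880548-4880607, minus strand: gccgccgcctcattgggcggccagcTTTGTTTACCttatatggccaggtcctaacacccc
Bahcc1, chr11:120231630-120231689, plus strand: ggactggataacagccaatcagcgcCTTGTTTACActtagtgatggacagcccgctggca
Smpd3, chr8:106338157-106338216, minus strand: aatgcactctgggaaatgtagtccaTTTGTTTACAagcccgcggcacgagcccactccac

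The next stretches carry the matches of distal peaks. The first 4 are among the strongest distal peaks, and in the last 2 a pair of matches overlaps, which gives a longer run of capitals. The stretch near Btbd3 holds another core just after its match, which does not meet the rest of the consensus.
Zfp395, chr14:65343963-65344022, plus strand: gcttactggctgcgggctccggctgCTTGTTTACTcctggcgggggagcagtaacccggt
Chchd6, chr6:89613727-89613786, plus strand: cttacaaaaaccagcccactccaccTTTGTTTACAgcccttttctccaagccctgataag
Smad3, chr9:63856394-63856453, plus strand: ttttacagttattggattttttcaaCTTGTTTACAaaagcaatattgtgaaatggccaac
Btbd3, chr2:137694174-137694233, minus strand: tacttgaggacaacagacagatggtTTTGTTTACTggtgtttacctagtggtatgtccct
Nrg3, chr14:38629977-38630036, minus strand: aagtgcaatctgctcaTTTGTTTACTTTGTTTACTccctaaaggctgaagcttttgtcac
4932438H23Rik, chr16:91085591-91085650, plus strand: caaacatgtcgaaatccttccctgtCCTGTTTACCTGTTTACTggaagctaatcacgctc

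The share of FOXP1 windows with the consensus was close to that of the genome. Of 11979192 windows of 200 bp tiled along chromosomes 1 to 19, 112137 (0.936%) held a match. The share differed by location, since 474 of 44145 distal peaks (1.07%, 0.982 to 1.17%) and 108 of 19136 proximal peaks (0.564%, 0.468 to 0.681%) had one. Proximal peaks are those that overlap the 2000 bp ahead of a transcription start site (TSS) of any gene. Peaks with the consensus were therefore less often proximal than peaks without it, at 18.6% and 30.3% (difference −11.8 percentage points, Newcombe interval −14.8 to −8.41). Their median distance to the nearest TSS was 10922 bp against 5961 bp. Their summits lay in an intron in 284 cases, between genes in 251, in a non-coding exon in 25, in a UTR in 19, and in a coding exon in 3. Coding exons held 0.515% of the summits with the consensus and 4.36% of those without.

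Base composition moved with these shares. Windows with the consensus had a median GC content of 46.5% (45.5 to 47.5%) and the others 51.5%. In the lowest quintile of windows by GC content (14.0 to 43.5% GC), 1.54% (1.33 to 1.79%) of distal and 1.39% (0.845 to 2.28%) of proximal windows had a match. In the highest quintile (61.5 to 88.5% GC), these shares were 0.341% (0.179 to 0.646%) and 0.260% (0.179 to 0.378%). Distal and proximal peaks thus had overlapping intervals within each quintile. When the peaks without a match were weighted to the GC content of those with one, the difference in proximal share was −0.559 percentage points, in place of −11.8.

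**Figure D1:**
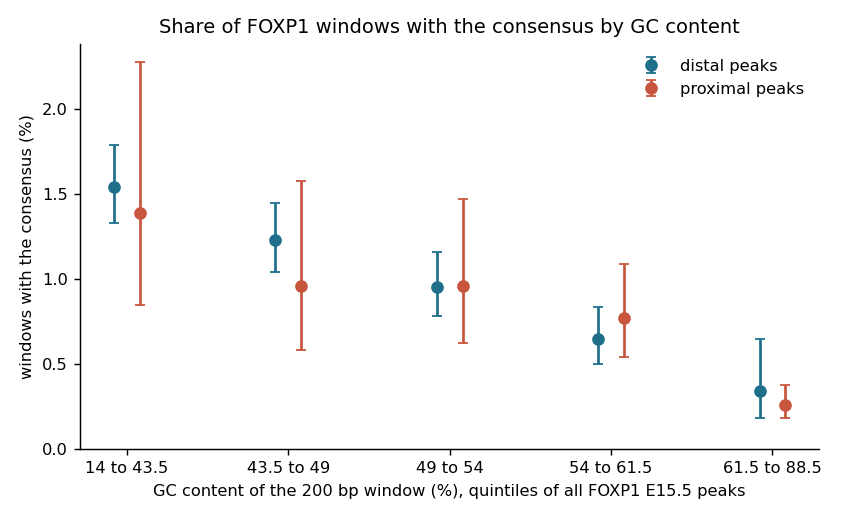
Share of FOXP1 E15.5 windows with the consensus (y axis, percent) by GC content of the window (x axis, quintiles in percent) for distal and proximal peaks, with 95% Wilson intervals. The share falls from 1.54% to 0.341% for distal and from 1.39% to 0.260% for proximal peaks, and the intervals of both kinds overlap in every quintile.

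Matches gathered at the summits of distal peaks. Within 50 bp of the summit, all FOXP1 E15.5 peaks together had 54.4 matches per Mb (exact Poisson interval 48.8 to 60.5), against 43.0 (41.4 to 44.6) at 500 to 1000 bp from it, a ratio of 1.27 (1.13 to 1.42). Among peaks of −log10 p 15 or higher it was 1.18 (0.981 to 1.42). The mean over the genome was 49.9 per Mb, so the flanks were below it and the centers near it. Distal summits had 63.4 matches per Mb (56.1 to 71.3) against 45.0 in their flanks, a ratio of 1.41 (1.24 to 1.60), which reached 1.61 (1.37 to 1.90) within 25 bp. Proximal summits had 33.8 per Mb (26.0 to 43.1) against 38.4, a ratio of 0.881 (0.682 to 1.14). Taken over whole peaks instead of summits, 1670 of the 119514 matches on these chromosomes (1.40%) lay inside the 41.0 Mb of FOXP1 E15.5 peaks, which make up 1.71% of the sequence.

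The same measure was taken around the summits of the other lists. The ratio was 1.35 (1.22 to 1.50) for ARID1B at E15.5 and 1.30 (1.17 to 1.44) at E18.5, and these intervals overlap that of FOXP1 at E15.5. It was 1.13 (0.929 to 1.37) for FOXP1 at E18.5, a list of 24526 peaks on these chromosomes, where the interval within 25 bp was 0.711 to 1.27 and the ratio to flanks of 1000 to 2000 bp was 1.04. For TCF7L2 it was 0.923 (0.766 to 1.11) and 0.911 (0.787 to 1.05) at the earlier and later stage. Whether the ratios differ between lists was not tested, and many FOXP1 and ARID1B peaks are shared.

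**Figure D2:**
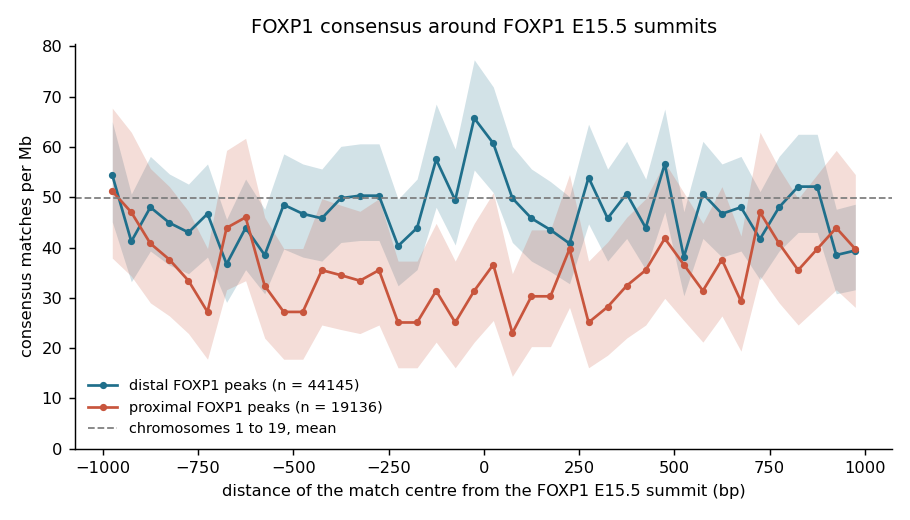
Consensus matches per Mb (y axis) in 50 bp bins by distance of the match from the FOXP1 E15.5 summit (x axis, bp) for distal and proximal peaks, with 95% exact Poisson bands and the genome mean of 49.9 per Mb as a dashed line. Distal peaks rise at the summit to 63.4 per Mb within 50 bp, while proximal peaks stay at 33.8 per Mb, below the genome mean.

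To see whether the center belonged to this word or to words like it, the core and its 21 single-base variants were counted around distal summits. Positions are counted from 1 at the first T of the core, with the base of the core first. The core had the highest ratio of center to flank of the 22 words, 1.33 (1.24 to 1.43). It was followed by A6C with 1.28 (1.21 to 1.35), A6G with 1.22 (1.15 to 1.30), T5G with 1.21 (1.11 to 1.33), and A6T with 1.19 (1.13 to 1.25), and the interval of each of these overlaps that of the core. The lowest was T4A with 0.477 (0.422 to 0.540). Changes at position 2 all gave a ratio below 1 (G2A 0.799, G2C 0.686, G2T 0.726). In the 4888 distal peaks with a fold enrichment of at least 6, the core had a ratio of 1.73 (1.44 to 2.09) and the next word, T5C, 1.46 (1.20 to 1.77). Around proximal summits the core stood at 0.676 (0.578 to 0.790), below its flanks. It was also below T1C (1.11), A6C (0.827), and T3G (0.763), but no other word. Over all peaks the core had 1.15, T1C 1.15, and A6C 1.16, so the core ranked first in distal peaks but not over all.

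Inside the windows, the 582 peaks held 585 matches, 292 of them on the plus strand. The center of the nearest match lay within 50 bp of the summit in 346 peaks and within 25 bp in 198, with a median distance of 42.0 bp. The rule admits no center farther than 94 bp, so these distances alone do not show closeness to the summit. Of these matches 11.1% touched sequence marked as repeats, compared with 37.7% of all matches in the genome. The most frequent form was TTTGTTTACA, with 67 matches (11.5%, 9.12 to 14.3%), against 14.0% in flanks of all FOXP1 peaks and 14.8% in the genome. The form TCTGTTTACC, seen near Cacng4, Ubac1, and Dock2 among others, took 9.74% (7.60 to 12.4%) against 6.80% (5.90 to 7.82%) in the flanks and 5.79% in the genome. A C after the core was found in 27.7% (24.2 to 31.5%) of matches in windows and 22.2% (20.7 to 23.8%) in the flanks, with 25.1% in the genome.

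The window edge decides membership by single bases. The match near Mettl21a (fold enrichment 5.95) and Med7 (4.30) ended on the outermost base of the window, with its center 94 bp from the summit. Near 5730522E02Rik (2.91), Aldh3a1 (5.95), and Stau1 (3.42) it passed the edge by 1 base, an end letter that may be any base. These peaks counted as lacking the consensus. In all, 48 peaks without the consensus had a match that passed the edge by 10 bp or fewer.

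Peaks with and without the consensus had the same median height. Fold enrichment, the ratio of ChIP reads to background at the summit, had a median of 4.05 in both groups, with quartiles of 3.29 and 5.32 with the consensus and 3.29 and 5.95 without. A fold enrichment of 4.05 stands for 31 reads over the summit. Among distal peaks the medians were 3.92 (3.80 to 4.05) and 3.80, and among proximal peaks 5.32 (4.18 to 8.99) and 6.96. The share with a match in distal peaks was 0.988% (0.873 to 1.12%) below 4-fold, 1.17% (1.00 to 1.36%) at 4 to 6, 1.20% (0.913 to 1.57%) at 6 to 10, and 1.50% (0.761 to 2.93%) at 10 to 25. In proximal peaks it was 0.794% (0.581 to 1.08%) below 4-fold, 0.617% (0.408 to 0.933%) at 4 to 6, 0.219% (0.115 to 0.416%) at 6 to 10, and 0.544% (0.390 to 0.759%) at 10 to 25. Of the 309 peaks at 25-fold or more, 5 had a match, 4 among 302 proximal and 1 among 7 distal peaks.

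The tallest proximal peak with the consensus, 40.6-fold and 320 reads at its summit, lay at Mplkip, a gene named for a partner of the mitotic kinase PLK1. It was 11.4-fold in FOXP1 at E18.5, 6.33- and 7.71-fold in ARID1B, and 8.90- and 8.87-fold in TCF7L2 (E15.5 and E18.5 in each pair). The E15.5 FOXP1 value was thus well above that of every other list. Ndufaf1, which encodes an assembly factor of mitochondrial complex I, had 38.1-fold at E15.5 and 9.24-fold at E18.5, with its match 57 bp from the summit and the summit 19 bp upstream of the TSS. Fra10ac1, a gene at a fragile site, had 35.9- and 9.98-fold, and Mkrn3, an imprinted gene for a ubiquitin ligase, had 32.5- and 6.74-fold. All 4 peaks overlapped all 5 other lists, at 3.75- to 11.9-fold in ARID1B and TCF7L2.

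These 4 belong to a larger set. Of 302 proximal FOXP1 peaks at 25-fold or more at E15.5, 4 had the consensus, and the median ratio of E15.5 to E18.5 fold enrichment over the 302 was 3.10. These were taken for a high E15.5 value, which is also the numerator of the ratio, and over all shared proximal peaks the median ratio was 1.23 with the consensus and 1.26 without. It was 3.55 for Mplkip, 4.12 for Ndufaf1, 3.60 for Fra10ac1, and 4.83 for Mkrn3. The next promoters differed less between stages. Arrdc3, which encodes an arrestin-like protein, had 24.4- and 12.9-fold, Dhx8, a spliceosomal helicase gene, 18.6- and 13.9-fold, and Ubald1 17.1- and 14.1-fold. Bahcc1, a gene for a chromatin reader, had 17.0- and 14.2-fold in FOXP1 and was the only one of the 10 tallest promoters with more in TCF7L2 (21.4- and 20.7-fold) than in FOXP1 at both stages. Smpd3, which encodes a neutral sphingomyelinase, had 16.5- and 14.7-fold, and Grk6, a receptor kinase gene, 15.4- and 14.2-fold with its match centered 1 bp from the summit.

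The tallest distal peak with the consensus lay in an intron of Cacng4, which encodes an auxiliary subunit of AMPA receptors, at chr11:107783918-107784716, 10.2 kb downstream of the TSS. It was 38.7-fold at E15.5 and 39.9-fold at E18.5 in FOXP1, but 5.08- and 6.31-fold in ARID1B, absent from the TCF7L2 list at E15.5, and 4.38-fold in it at E18.5. It was 1 of 7 distal FOXP1 peaks at 25-fold or more and the only one of them with a core. Its window is a tandem array: the 200 bp were 84.2% identical to themselves at a shift of 80 bp, with 120 bases compared. Self-identity was computed for some of the named windows only, and among those besides Cacng4 and Dock2 it reached 42.1% at most, near Ubac1. The window is shown whole, with the match in capitals.
Cacng4, chr11:107784286-107784485, minus strand: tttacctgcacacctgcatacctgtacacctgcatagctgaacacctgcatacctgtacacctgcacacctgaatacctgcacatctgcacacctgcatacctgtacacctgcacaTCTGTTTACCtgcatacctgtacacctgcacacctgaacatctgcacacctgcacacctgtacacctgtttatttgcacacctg

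The other distal peaks among the 10 tallest were between 9.49- and 14.2-fold. The peak 14.4 kb upstream of Zfp395 had 14.2-fold at E15.5 and 13.1-fold at E18.5 in FOXP1 and 8.10- to 9.82-fold elsewhere. At 5 of the 10, near Smad3, Btbd3, Ubac1, Efcab6, and Tcn2, ARID1B was higher than FOXP1 at both stages. Near Smad3, an effector of TGF-beta signaling 98.5 kb away, FOXP1 had 11.0- and 8.21-fold and ARID1B 14.9-fold at E15.5. Near Btbd3, which shapes dendrite orientation and lies 562 kb away, FOXP1 had 10.8- and 10.7-fold and ARID1B 16.4- and 15.6-fold. Near Ubac1 FOXP1 had 11.6- and 5.27-fold and ARID1B 14.1- and 13.9-fold. The peaks near Chchd6 (12.3-fold), Rps24 (11.1-fold), Efcab6 (10.8-fold), and Tcn2 (9.49-fold) were also present in all 6 lists. Nearest genes are given as labels of position, since a distal peak may serve another gene.

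A pair of peaks within introns of Dock2, a gene for a Rac activator best known from blood cells, stood out by the number of cores and was chosen after its values were seen. Among all 63281 FOXP1 E15.5 windows, 61453 held no core, 1786 held 1, 40 held 2, and only these 2 held 3 or more, with 5 cores each. Their summits lie 137 kb apart. The upstream peak, at chr11:34681670-34682276, had 10.4-fold at E15.5 and 15.4-fold at E18.5 in FOXP1, 10.5- and 8.98-fold in ARID1B, and 11.6- and 6.79-fold in TCF7L2. The downstream peak, at chr11:34544759-34545009, had 4.56- and 5.85-fold in FOXP1 and appeared in no ARID1B list and only at E18.5 in TCF7L2 (3.61-fold). In both, FOXP1 was higher at E18.5, which held for 31 of the 153 consensus peaks shared by the stages. Both windows are tandem arrays (self-identity 75.0% at 72 bp upstream and 81.9% at 73 bp downstream), shown here with every core in capitals.
Dock2 upstream array, chr11:34681812-34682011, minus strand: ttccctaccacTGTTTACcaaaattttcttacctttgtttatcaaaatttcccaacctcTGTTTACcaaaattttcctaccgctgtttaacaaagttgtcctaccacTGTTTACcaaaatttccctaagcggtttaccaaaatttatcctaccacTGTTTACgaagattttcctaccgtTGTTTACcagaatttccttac
Dock2 downstream array, chr11:34544750-34544949, minus strand: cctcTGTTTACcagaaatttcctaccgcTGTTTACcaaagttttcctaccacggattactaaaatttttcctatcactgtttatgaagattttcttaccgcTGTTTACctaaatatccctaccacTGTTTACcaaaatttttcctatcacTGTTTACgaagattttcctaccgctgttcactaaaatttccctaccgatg

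A minority of the consensus peaks was also called at E18.5. Of the 582, 153 (26.3%, 22.9 to 30.0%) overlapped a FOXP1 E18.5 peak, against 34.1% of peaks without the consensus and 34.1% of all FOXP1 E15.5 peaks. This difference of −7.84 percentage points (−11.3 to −4.10) was not present among distal peaks, where 97 of 474 (20.5%, 17.1 to 24.3%) overlapped, beside 20.0% of peaks without the consensus and 20.0% of all distal peaks (difference 0.508 points, −2.90 to 4.39). Over all peaks it was 1.51 points when weighted to equal GC content and −3.76 points when weighted to equal fold enrichment. Among proximal peaks, 56 of 108 (51.9%) and 66.7% overlapped (difference −14.8 points, −24.2 to −5.60). Peaks shared by both stages were taller at E15.5. Consensus peaks with an E18.5 partner had a median of 6.96-fold and those without one 3.67-fold, with a highest value of 9.11-fold among the latter. In distal peaks the shared fraction rose with E15.5 height both with and without the consensus, from 0.990% and 1.99% in the lowest quintile of all peaks by height to 87.8% and 85.6% in the highest. The ratio of E15.5 to E18.5 fold enrichment had a median of 1.20 (quartiles 1.04 and 1.37) for the 153 peaks and 1.23 (1.06 and 1.41) for shared peaks without the consensus. The smaller library behind each list held 64.5 M reads at E15.5 and 26.3 M, those of the input, at E18.5. The part of depth in the lower number of E18.5 peaks was not tested.

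**Figure D3:**
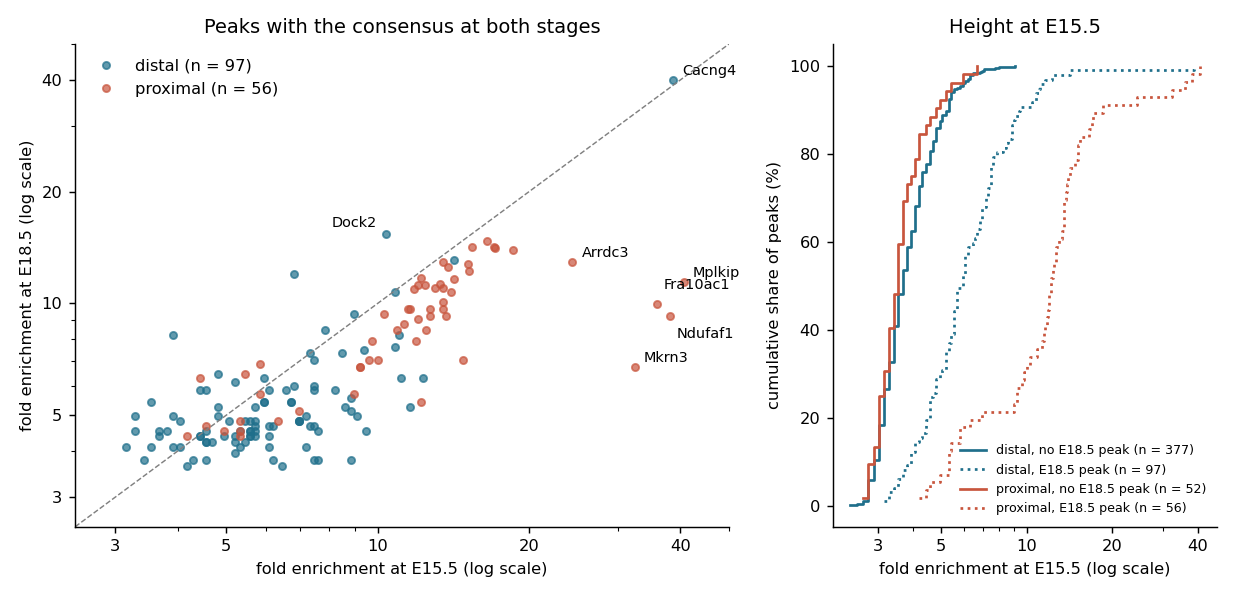
Left, fold enrichment of FOXP1 peaks with the consensus at E15.5 (x axis) and E18.5 (y axis), both on log scales, for peaks called at both stages, with equality dashed. Right, cumulative share of peaks (percent) by E15.5 fold enrichment, split by location and by an E18.5 peak. Mplkip, Ndufaf1, Fra10ac1, and Mkrn3 lie far below the line at 6.74- to 11.4-fold at E18.5, Cacng4 lies just above it (38.7 and 39.9), and peaks without an E18.5 partner end at 9.11-fold.

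Peaks with the consensus met ARID1B peaks more often with the 200 bp window. At E15.5, 464 of 582 (79.7%, 76.3 to 82.8%) overlapped an ARID1B peak against 75.5% of the others and 75.5% of all FOXP1 E15.5 peaks, a difference of 4.22 percentage points (0.746 to 7.30). When only peaks of −log10 p 15 or higher were kept, this difference was −0.294 points. With a window of 100 bp it was 2.90 points (−2.06 to 7.15) and with 400 bp 1.99 points (−0.605 to 4.40), so both intervals reach below 0. At E18.5, 451 (77.5%) overlapped one against 71.0% of the others and 71.1% of all (difference 6.48 points, 2.90 to 9.71). Among distal peaks the difference was larger. At E15.5 it was 80.0% (76.1 to 83.3%) against 71.9%, with 72.0% of all distal peaks (8.03 points, 4.17 to 11.4), and at E18.5 77.6% (73.7 to 81.2%) against 66.9%, with 67.0% of all (10.8 points, 6.77 to 14.3). Within GC quintiles of distal peaks the share was higher with the consensus in 5 of 5 at both stages, by 4.27 to 25.2 points at E15.5 and 7.56 to 30.6 points at E18.5, although most of these intervals reach below 0, and the quintile of highest GC content holds 9 consensus peaks. Among proximal peaks the direction was opposite and within counting error, with 78.7% against 83.7% at E15.5 (−5.03 points, −13.7 to 1.66) and 76.9% against 80.5% at E18.5 (−3.64 points, −12.5 to 3.33). In the 464 shared peaks the FOXP1 and ARID1B summits lay a median of 62.5 bp apart at E15.5.

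TCF7L2 peaks were met less often when base composition was not taken into account. At E15.5, 190 peaks with the consensus (32.6%, 29.0 to 36.6%) overlapped a TCF7L2 peak against 43.9% of the others and 43.8% of all (difference −11.2 points, −14.9 to −7.28), and at E18.5 295 (50.7%) did so against 61.4% of the others and 61.3% of all (−10.7 points, −14.8 to −6.66). Among distal peaks these shares were 26.2% against 30.0%, with 30.0% of all distal peaks (−3.88 points, −7.65 to 0.283), and 45.1% against 50.6%, with 50.5% of all (−5.44 points, −9.89 to −0.912). Weighted to equal GC content, the difference at E15.5 turned its direction, at 0.703 points over all peaks and 0.944 points in distal peaks. The TCF7L2 overlap of distal peaks rose with GC content whether or not the consensus was present, from 14.9% and 13.8% in the lowest quintile to 45.6% and 43.3% in the fourth.

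**Figure D4:**
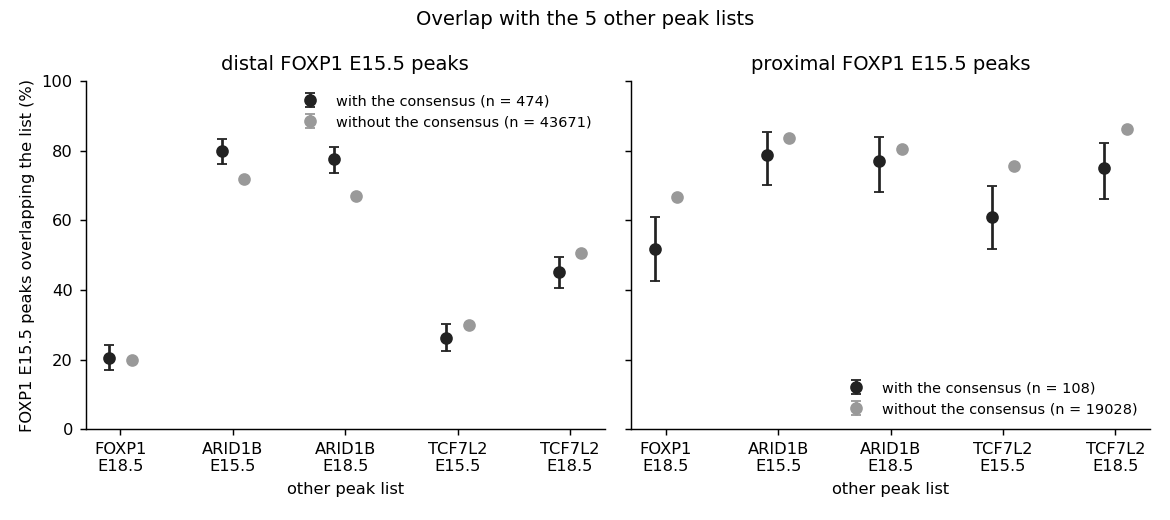
Share of FOXP1 E15.5 peaks (y axis, percent) that overlap each other list (x axis) by 1 base or more, with and without the consensus, for distal (left) and proximal (right) peaks, with 95% Wilson intervals. Distal peaks with the consensus stand above the others for ARID1B (80.0% and 71.9% at E15.5) and near them for FOXP1 at E18.5, while proximal peaks with the consensus are lower for FOXP1 and TCF7L2.

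A peak in all 5 other lists was found at 106 of the 582 (18.2%, against 26.4% of the others), led by Mplkip, Ndufaf1, Fra10ac1, Mkrn3, and Arrdc3. Among distal peaks the shares were 11.8% and 11.0% (difference 0.825 points, −1.79 to 4.06). No other list had a peak at 69 (11.9%, against 13.0%), with opposite directions by location. These were 11.4% against 15.8% of distal peaks (difference −4.41 points, −6.98 to −1.21) and 13.9% against 6.63% of proximal peaks (7.26 points, lower limit 1.96). The tallest of these lay near Prrc1 (5.32-fold), in an intron of Aph1c, a gamma-secretase subunit gene (5.32-fold), 626 kb from Vrk2 (4.94-fold), and near Gpcpd1 and in Ccdc169 (4.68-fold each). FOXP1 at both stages without any ARID1B or TCF7L2 peak was seen at 9 consensus peaks (1.55%, 0.816 to 2.91%) and at 1.17% of the others. Of these 9, a peak 588 kb from its nearest gene, Snrpn, had 6.83-fold at E15.5 and a ratio of E15.5 to E18.5 of 0.568. Repeats make up 66.0% of its window. Another near Cavin2 had 3.92- and 8.21-fold. The other 7 lay near Trim37, Fbxo47, Pld1, Nav3, Smpdl3a, Rims2, and Esrrg, with 3.29- to 6.08-fold at E15.5.

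Other consensus words in the same windows were counted to see what accompanied the match. The LHX2 homeobox consensus was in 33 windows with the FOXP1 consensus (5.67%, 4.07 to 7.86%) and in 3.21% of the others (difference 2.46 points, 0.850 to 4.65), and among distal peaks in 6.75% and 4.17% (2.58 points, 0.645 to 5.21). The consensus of NEUROD1, a neuronal bHLH factor, was in 7 windows (1.20%, against 0.405%), that of NEUROG2 in 5 (0.859%, against 0.333%), and that of TCF7L2 in 3 (0.515%, against 0.113%). The bHLH word of TCF4 was in 5.33% and 3.93% (1.40 points, −0.157 to 3.54). SOX2 and RFX1 words were in 1 window each (0.158% and 0.0558% of the others), and TBR1 and CTCF words in none (upper Wilson limit 0.656%, against 0.0797% and 0.00478% of the others). A core besides those inside the matches was in 21 of the 582 windows (3.61%, 2.37 to 5.45%). The rule itself keeps windows whose core meets the full consensus out of the other group, so this share is given without a comparison. The counts of words were not adjusted for GC content, which was lower in windows with the consensus.

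A pair of matches was found in 3 peaks. They were in introns of Stard13 (4.30-fold), Nrg3, a neuregulin gene (3.54-fold), and 4932438H23Rik (3.16-fold). Their matches overlapped in Nrg3 and 4932438H23Rik, with core starts 9 and 8 bp apart. Several peaks with the consensus were assigned to 1 gene in other places. Esrrg had 4 among its 18 FOXP1 peaks, Bach2 4 among 57, and Tenm4 4 among 100. Efcab6 and Mat2b had 3 among 29 each, Nr2f1 3 among 40, and Pard3 3 among 49. These genes were listed by their counts, so no share is read from them. Nr2f1 encodes a nuclear receptor of cortical area patterning, and its 3 peaks ranged from 3.04- to 4.05-fold.

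By the nearest gene, or the promoter for proximal peaks, the 582 peaks were assigned to 536 coding genes, 3.68% of the 14551 with any FOXP1 E15.5 peak. The lists below had 6.96 to 29.6 FOXP1 peaks per gene with any, against 4.35 over all coding genes, so counts are given per peak, to be read against 0.920% for all genes. Among forkhead genes themselves 6 of 299 peaks had the consensus (2.01%, 0.923 to 4.31%). They included peaks in introns of Foxp4 (8.23-fold), Foxp2 (4.81-fold), and Foxn3 (3.54-fold), and peaks far from Foxl1 (3.92-fold) and Foxo1 (3.80-fold). The Foxp4 peak had 12.5- and 13.6-fold in ARID1B and 5.85-fold in FOXP1 at E18.5. Foxp2 and Foxp4 encode dimerization partners of FOXP1.

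Of 1238 peaks at synaptic adhesion genes, 17 (1.37%, 0.859 to 2.19%) had the consensus, over 10 of the 50 genes, and this interval holds the share for all genes. The teneurins, which are transmembrane adhesion proteins, were singled out from this list for their counts, and the consensus was in 2 of 66 FOXP1 peaks at Tenm2, 2 of 55 at Tenm3, and 4 of 100 at Tenm4. The Tenm3 promoter peak was 9.62-fold at E15.5 and 7.03-fold at E18.5, with its match 8 bp from the summit, and the tallest in Tenm4 was 6.96-fold. The others included a peak in Ncam2 (6.20-fold) and 2 assigned to Ptprd (5.44-fold, 841 kb from its TSS, and 3.16-fold, in an intron). Of 793 peaks at axon guidance genes 7 had it (0.883%), led by 2 assigned to Sema6d (5.32-fold, 316 kb from its TSS, and 4.56-fold, in an intron). Next came Robo1 (3.92-fold, 725 kb away), Epha5 (3.80-fold, 345 kb), Epha4 (3.67-fold, 435 kb), and the promoter of Sema3e (3.67-fold). At ion channel and transmitter receptor genes it was 3 of 538 (0.558%). These lay 1399 kb from Kcnt2 (4.94-fold), in an intron of Gabra4 (4.18-fold), and 1125 kb from Grik2 (3.42-fold).

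At genes of cortical layers and progenitors the counts were small and their intervals held the share for all genes. Upper-layer genes had 5 of 505 (0.990%), with Cux1 at 6.08-fold and Pou3f3 and Cdh4 (407 kb away) at 4.56-fold. Deep-layer and subplate genes had 4 of 412 (0.971%), with Diaph3 at 6.33-fold. Radial glia genes had 3 of 417 (0.719%), 130 kb from Id4 (5.95-fold), at Pax6 (4.56-fold, 191 bp upstream of a TSS), and in Slc1a3 (3.67-fold). Proneural and intermediate progenitor genes had 2 of 317, both assigned to Tcf4 (7.59- and 3.04-fold), and interneuron genes 3 of 288, of which 2 were in Sox6 (3.29-fold each). Genes of nuclear factor I, Sox, and POU factors had 5 of 651 (0.768%), including Nfib (3.54-fold).

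Pathway and chromatin genes also had intervals that held the share for all genes. Wnt genes had 3 of 295 (1.02%, 0.346 to 2.95%). These lay 189 kb from Wnt5a (3.92-fold), 59.3 kb from Fzd7 (3.04-fold), and in an intron of Tcf7l1 (2.91-fold). Notch genes had 0 of 174 (upper Wilson limit 2.16%). Chromatin remodeling genes had 3 of 463 (0.648%, 0.221 to 1.89%), near Auts2 (4.94-fold), Dpf3 (4.56-fold), and Arid1b (3.29-fold, 2.59- and 3.23-fold in ARID1B). Of 100 ASD-associated genes of the study matched by symbol, 6 had 7 consensus peaks among 1138 (0.615%, 0.298 to 1.26%), at 3.04- to 7.59-fold, among them Tcf4, Foxp2, Tcf20, Arid1b, and Kmt2e. All 7 were distal.

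**Figure D5:**
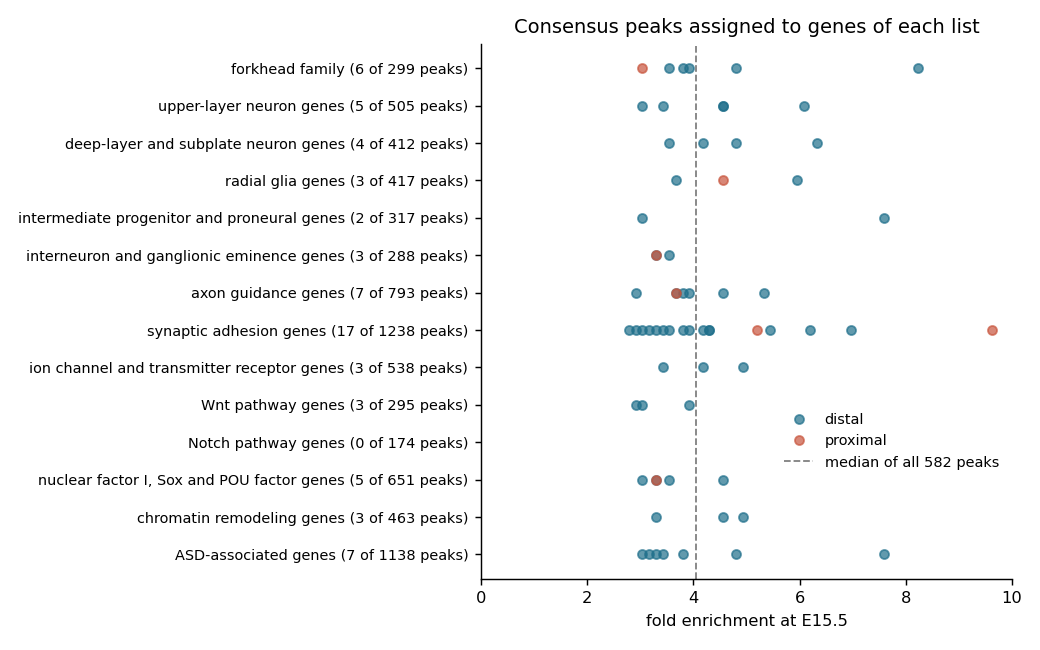
Fold enrichment at E15.5 (x axis) of each consensus peak assigned to a gene of a list (y axis, with the number of consensus peaks among all FOXP1 E15.5 peaks of the list), for distal and proximal peaks, with the median of all 582 peaks dashed at 4.05. Most points lie between 2.78- and 6.96-fold, the Notch row is empty, and the promoter of Tenm3 at 9.62-fold is the farthest to the right.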

How the data were processed

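ChIP-seq of 24 mouse cortex libraries was represented by 6 peak lists. Per the labels and methods, BWA 0.7.15 was used by the authors for alignment to mm10 (GRCm38), after which they filtered on mapping quality, merged the 2 replicates, and called narrow peaks with MACS2 2.2.7 against input at a q-value of 0.01, with reads extended to 200 bp and local background off. The deposited lists give the ratio of ChIP to background at the summit (fold enrichment), the p-value there as −log10, the q-value likewise as −log10, and a score that the authors' caller derives from the q-value, which was not used. Reads at summits and library sizes were recovered from distinct pairs of fold enrichment and p-value, 66 for FOXP1 at E15.5. Only pairs below an upper limit on −log10 p were used, and all of these (100%) were explained within 0.01. The tallest peaks, such as that at Mplkip, lay above the limit.

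Chromosomes X and Y were left out of all comparisons. Windows, matches, and repeats were read from soft-masked GRCm38, and TSSs from GENCODE vM21, whereas the methods name another release. The consensus came from the study's motif table. Shares have 95% Wilson, differences of shares 95% Newcombe, medians order-statistic, and densities exact Poisson intervals. Peaks of a list are not replicates, and no test across them was made. Python 3.11.15, numpy 2.4.6, pandas 2.3.3, and scipy 1.17.1 were used, and the scanner, intervals, and weighting were tested on simulated data.

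Named peaks were the 10 tallest proximal and distal ones, those with a pair of matches, the 5 tallest in all or none of the other lists, those at the window edge, and those of fixed gene lists. The members and lists were chosen with earlier results of these data known. The ASD-associated genes and the peaks with 3 or more cores were added after the values were seen. Some named peaks are not reported here.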

Additional observations from a re-analysis of the deposited data

Results flagged for a closer look

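Chromosomes X and Y lay outside the comparisons. On chromosome X, 8 of 760 FOXP1 E15.5 peaks had the consensus in their window (1.05%, 95% Wilson interval 0.534 to 2.06%), a signal in data that the report does not use and one whose interval holds the 0.920% of chromosomes 1 to 19. On chromosome Y, 0 of 16 had it.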

How the results depend on the processing

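No paired analysis was possible because the 2 replicates of each TR and stage were merged before peaks were called, and for the same reason no replicate could be left out. Of 68 alternatives to 8 results, 40 stayed within the 95% interval of the reported value or, for values without one, within 1.5 times it. They include the ARID1B E15.5 difference with windows of 100 and 400 bp (2.90 and 1.99 against 4.22), whose own intervals reach below 0. A median fold enrichment difference of 0.127 equals the upper bound of its interval as printed, and was counted inside for distal peaks and outside with GC weighting. The 3 that combine distal peaks with GC weighting were chosen after seeing the data. The number of peaks with the consensus, 582, was 306 with a 100 bp window, 1089 with 400 bp, 1828 for the core alone, and 205 when only peaks of −log10 p 15 or higher were kept. With that limit the proximal share differed by −22.3 points, the median fold enrichment by −0.759, the median GC content by −8.00, the FOXP1 E18.5 overlap by −12.3, and the ARID1B E15.5 overlap by −0.294, which turned its direction. With GC weighting, the proximal difference was −0.559, the fold enrichment difference 0.127, the FOXP1 E18.5 difference 1.51, and the TCF7L2 E15.5 difference 0.703, the last 2 with the direction turned. In distal peaks the differences were 0.508 for FOXP1 E18.5 (direction turned), 8.03 for ARID1B, and −3.88 for TCF7L2, and with GC weighting 1.91, 7.70, and 0.944. In proximal peaks they were −14.8 for FOXP1 E18.5, −5.03 for ARID1B (direction turned), and −1.65 for median fold enrichment. With summits within 100 bp the FOXP1 E18.5 difference was −3.61 and that of TCF7L2 −4.59, and with weighting over fold enrichment the former was −3.76. The density ratio of 1.27 was 1.18 with that limit on −log10 p, 1.44 within 25 bp, 1.46 outside repeats, and 0.881 in proximal peaks. The causes were not tested.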
